A study of Mus musculus with 24 samples.

Results

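The water and urea channels described here were Mip, Aqp1, Aqp5 and Slc14a1, taken from the gene count table by their Entrez identifiers. They were 4 of the 24415 genes in the table, and each was measured in all 24 libraries. The set was chosen by gene family with earlier results of these counts known. The excess of Slc14a1 in LEGSKO+BSO and LEGSKO over WT epithelia was taken as known at that time. Whether other values of the members were in view is not documented, so their p-values hold only if they were not. Aquaporins are membrane channels that let water follow osmotic gradients. Mip, also called aquaporin 0, is the main membrane protein of lens fiber cells and also takes part in fiber cell adhesion, and its loss or mutation causes cataract in mice and people. Aqp1 is the water channel of the lens epithelium and of many other epithelia and endothelia. Aqp5 is best known from salivary gland, lung and cornea and is also found in lens fibers. Slc14a1 encodes the facilitative urea transporter UT-B, known from red cells and the kidney vasa recta. The lens has no blood supply, and water and solutes move through it in a circulation driven by the sodium pumps of the epithelium.

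RNA was sequenced from mouse lenses of the C57BL/6 background, separated into epithelia and cortical fiber cells, with 4 libraries in each of 6 groups. LEGSKO+BSO lenses carried the LEGSKO genotype and had been treated with buthionine sulfoximine (BSO), LEGSKO lenses carried the genotype without treatment, and WT lenses carried neither. In LEGSKO mice the lens lacks Gclc, which encodes the catalytic part of the enzyme that starts glutathione synthesis. BSO inhibits the same enzyme, and the labels call the shortage of glutathione mild in LEGSKO and severe in LEGSKO+BSO. The labels do not name the Cre driver, the age or sex of the mice, the dose or route of BSO, or whether each library is a different mouse, so p-values measure the spread between these libraries. WT lenses treated with BSO were not analysed here.

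Libraries held 39034309 to 46569611 counts in LEGSKO+BSO fibers, 22408316 to 25542479 in LEGSKO fibers and 25708466 to 30007218 in WT fibers. The epithelial libraries held 19340282 to 33892720 counts in LEGSKO+BSO, 20210161 to 25139117 in LEGSKO and 20584189 to 24198996 in WT. Gclc, the targeted gene, had 102.4 to 116.6 CPM (counts-per-million units after scaling between libraries) in LEGSKO+BSO fibers and 98.2 to 119.7 CPM in LEGSKO fibers, against 103.8 to 199.0 CPM in WT fibers. In epithelia it had 43.2 to 73.0 CPM in LEGSKO+BSO and 30.8 to 48.3 CPM in LEGSKO, against 44.8 to 64.3 CPM in WT. Gclc counted over the whole gene therefore did not separate the genotypes, and the groups are named by their labels. Of 13 lens fiber markers, 12 rose and 1 fell in WT fibers against WT epithelia, and of 10 lens epithelium markers 7 fell and 3 rose, by edgeR's quasi-likelihood test at an adjusted p of 0.05. WT fibers 1 stood apart: its 13 fiber markers summed to 382421 CPM, against 90413 to 110430 CPM in WT fibers 2 to 4.

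Mip (Entrez 17339) lies on GRCm38 chromosome 10 from 128225810 to 128231812, Aqp1 (11826) on chromosome 6 from 55336299 to 55348555 and Aqp5 (11830) on chromosome 15 from 99591028 to 99594829, all on the plus strand. Slc14a1 has the identifier 108052. The annotated exons covered 2144 bases in Mip, 2627 in Aqp1, 1797 in Aqp5 and 3995 in Slc14a1. Annotated genes overlap Mip (Gm26847), Aqp5 (Gm34765) and Slc14a1 (Gm36338), none of them with a row of its own, and since the strand setting of the counting is not given in the sources used here, their reads cannot be told apart from those of the channels. The 250 bases upstream of the 3 water channel genes are shown because Mip and Aqp5 differed between fibers and epithelia in the opposite direction from Aqp1. They come from RefSeq on GRCm38.p6, plus strand, at chr10:128225560-128225809 for Mip, chr6:55336049-55336298 for Aqp1 and chr15:99590778-99591027 for Aqp5, and capitals mark GC boxes, searched as GGGCGG on both strands.
Mip: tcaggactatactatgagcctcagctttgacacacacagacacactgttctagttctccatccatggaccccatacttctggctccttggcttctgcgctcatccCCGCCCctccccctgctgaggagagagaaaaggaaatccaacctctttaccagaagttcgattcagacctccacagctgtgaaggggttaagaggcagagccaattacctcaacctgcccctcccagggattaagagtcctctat
Aqp1: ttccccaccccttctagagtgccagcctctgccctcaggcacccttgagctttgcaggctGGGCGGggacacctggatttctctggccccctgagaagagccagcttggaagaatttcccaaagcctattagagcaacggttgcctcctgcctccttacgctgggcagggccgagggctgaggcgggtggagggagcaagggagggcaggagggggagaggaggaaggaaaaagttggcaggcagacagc
Aqp5: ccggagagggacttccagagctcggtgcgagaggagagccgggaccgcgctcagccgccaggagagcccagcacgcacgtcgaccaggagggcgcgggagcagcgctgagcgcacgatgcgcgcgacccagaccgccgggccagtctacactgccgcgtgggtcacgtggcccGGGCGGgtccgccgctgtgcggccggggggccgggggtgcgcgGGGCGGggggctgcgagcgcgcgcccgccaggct

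The Mip window held 1 GC box and the Aqp1 window 1, while the Aqp5 window held 2, and 32.7% of all 32851 RefSeq windows of this length held at least 1. G and C made up 52.0% of the bases upstream of Mip, 62.0% upstream of Aqp1 and 78.4% upstream of Aqp5, against a median of 52.4% over all windows. None of the 3 windows matched TATAAA (12.4% of all windows), TGANTCA, the AP-1 site (6.75%), TGACNNNGC, the core of the antioxidant response element (10.2%), or GAANNTTC, the heat shock element (6.69%), each searched on both strands.

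Mip was by far the most abundant channel, and it was higher in fibers than in epithelia in every condition. In the plot of levels by library its fiber and epithelial libraries are more than 10-fold apart. LEGSKO+BSO fibers 1 to 4 had 19712, 19675, 20273 and 18020 CPM, LEGSKO fibers had 19535, 19480, 18427 and 18881 CPM, and WT fibers had 33981, 21414, 20632 and 20691 CPM. Both LEGSKO groups lay below every WT library. WT fibers 1, with the high value, is the library with the high fiber marker sum. As a share of raw counts Mip made up 1.501% of that library and 1.447% to 1.541% of the other 3.

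**Figure D1:**
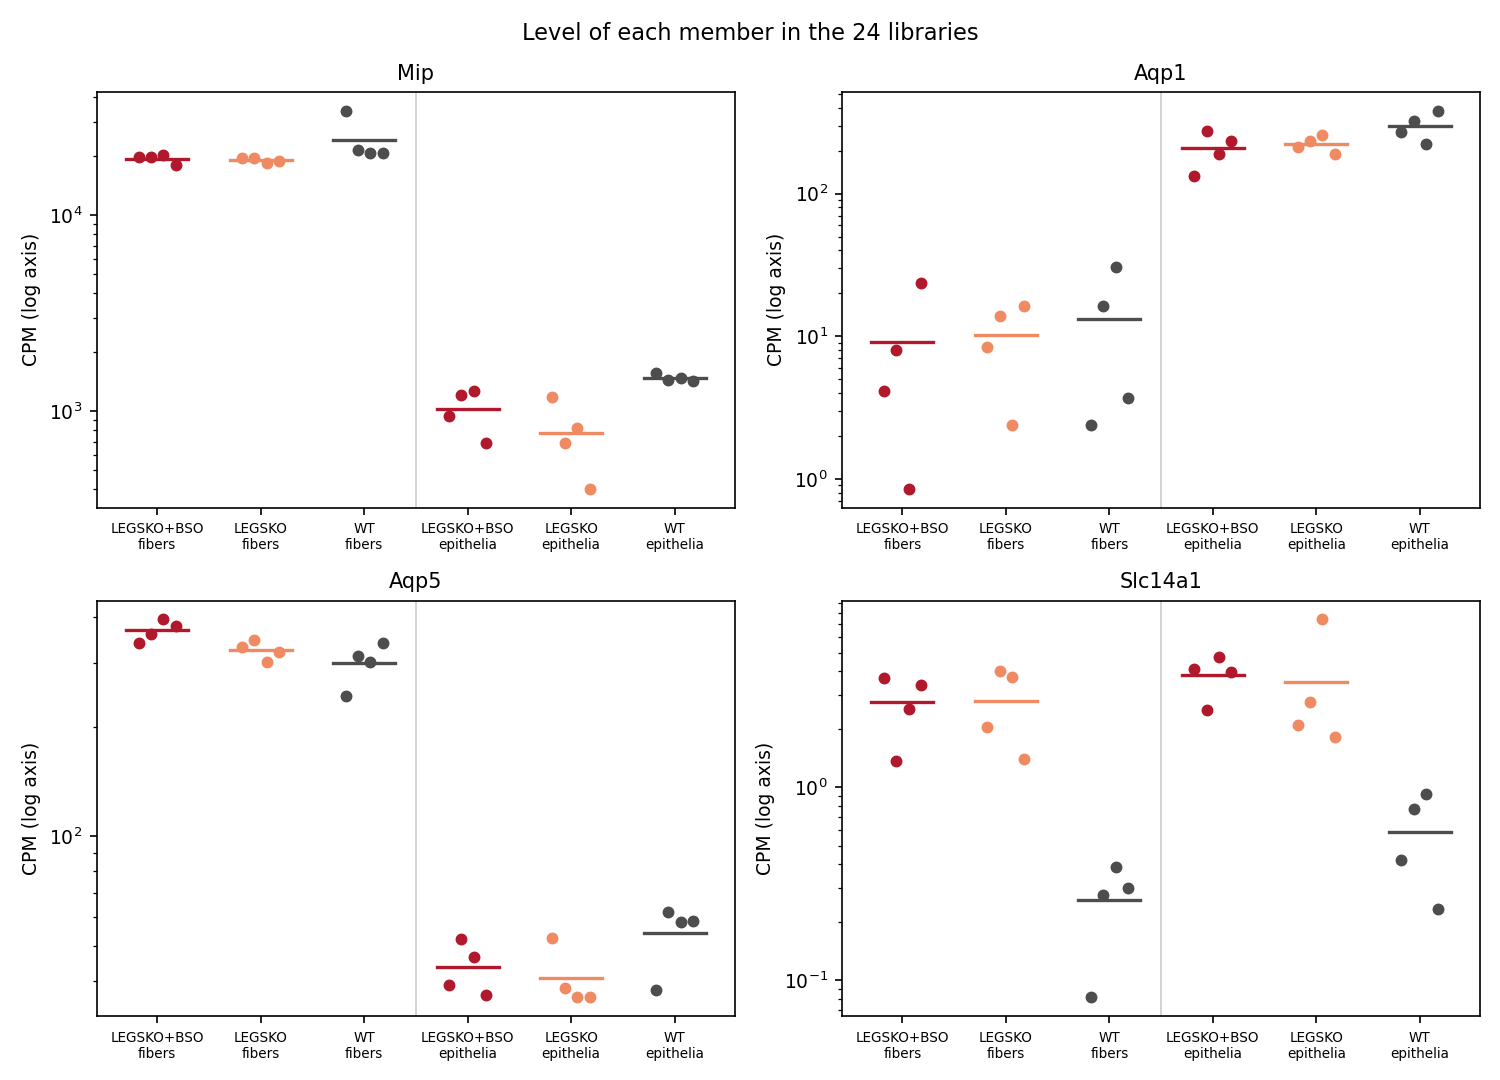
CPM (log axis) of Mip, Aqp1, Aqp5 and Slc14a1 in 24 libraries, with LEGSKO+BSO, LEGSKO and WT fibers left of the line and the same groups of epithelia right of it. Points are libraries 1 to 4 from left to right in each group and bars are group means; Mip and Aqp5 are higher in fibers, Aqp1 in epithelia, and Slc14a1 is lowest in the WT groups.

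In fibers the Mip mean was 19420 ± 973 CPM in LEGSKO+BSO and 19080 ± 527 CPM in LEGSKO, against 24180 ± 6544 CPM in WT (SD, n = 4 each). Medians were 19693.5, 19180.2 and 21052.8 CPM in LEGSKO+BSO, LEGSKO and WT. The log2 change was −0.32 in LEGSKO+BSO against WT fibers (edgeR adjusted p = 0.2135) and −0.34 in LEGSKO against WT fibers (adjusted p = 0.2652), so neither passed. Leaving out 1 library gave −0.39 to −0.11 in LEGSKO+BSO and −0.41 to −0.14 in LEGSKO. The share of all genes with ranges apart was not counted, so the gaps between Mip ranges, here and in epithelia, are a description. Mip ranked 7th of all 24415 genes by mean CPM in LEGSKO+BSO fibers, 10th in LEGSKO fibers and 10th in WT fibers.

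In epithelia Mip had 951.9, 1216, 1272 and 692.6 CPM in LEGSKO+BSO and 1186, 692.1, 825.9 and 403.4 CPM in LEGSKO, against 1574, 1450, 1481 and 1433 CPM in WT. Every LEGSKO and LEGSKO+BSO library was below every WT library, and the WT libraries were much closer together. The highest library was 2.94 times the lowest in LEGSKO epithelia and 1.84 times in LEGSKO+BSO epithelia, against 1.10 times in WT epithelia. The log2 change was −0.95 ± 0.25 (SE) in LEGSKO against WT epithelia, with an edgeR adjusted p of 0.08827, and −0.52 in LEGSKO+BSO against WT epithelia (adjusted p = 0.3434). The LEGSKO difference passed with DESeq2 (log2 −0.95, adjusted p = 0.03834) and with no filter on low counts (log2 −0.95, adjusted p = 0.04603). It also passed with edgeR without LEGSKO epithelia 1 (log2 −1.23, adjusted p = 0.02166). The other 7 of 8 edgeR fits that left out 1 library did not call it, with adjusted p-values up to 0.206. Neither did edgeR with library totals as the scaling (adjusted p = 0.08439), with DESeq2 size factors or with crystallins left out.

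The other fiber genes of the epithelial libraries were compared beside Mip. The 13 lens fiber markers, none of them at 0, summed to 5034 to 5847 CPM in LEGSKO+BSO epithelia and 4379 to 5164 CPM in LEGSKO epithelia, against 4673 to 6002 CPM in WT epithelia. Their median log2 change was −0.51 in LEGSKO against WT epithelia, where the median of all genes was −0.01, and −0.21 in LEGSKO+BSO against WT epithelia. None of the 13 passed edgeR's test in either comparison, with 3 and 4 below an unadjusted p of 0.05 and 0 and 1 called by DESeq2. Of all genes, edgeR called 0.842% in LEGSKO and 1.17% in LEGSKO+BSO against WT epithelia. In these bulk samples fewer fiber cells in the dissected epithelium and less RNA per cell cannot be told apart.

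The tissue difference in Mip was called in each condition. Fibers exceeded epithelia 18.8-fold in LEGSKO+BSO (log2 4.23, adjusted p = 6.449e-14), 24.6-fold in LEGSKO (log2 4.62, adjusted p = 2.051e-14) and 16.3-fold in WT (log2 4.03, adjusted p = 1.687e-13), by edgeR over 24 libraries. The study itself compared libraries only within a tissue, and the size of the tissue difference depends on the scaling. Scaled to library totals alone, an alternative added after the data were seen, Mip was higher in fibers 9.02-fold in LEGSKO+BSO, 11.4-fold in LEGSKO and 6.95-fold in WT.

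Aqp1 showed the reverse distribution. Epithelial libraries had 133.5, 274.4, 190.7 and 232.3 CPM in LEGSKO+BSO and 210.6, 233.9, 258.7 and 188.4 CPM in LEGSKO, against 272.3, 322.4, 222.5 and 379.8 CPM in WT. The LEGSKO+BSO and WT ranges overlapped, as did the LEGSKO and WT ranges. Means were 207.7 ± 60.1, 222.9 ± 30.2 and 299.3 ± 67.4 CPM in LEGSKO+BSO, LEGSKO and WT epithelia (SD, n = 4 each). The log2 change was −0.53 in LEGSKO+BSO against WT (edgeR adjusted p = 0.2092) and −0.44 in LEGSKO against WT (adjusted p = 0.3174), and neither passed.

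In fibers Aqp1 was low and varied widely between libraries of 1 group. It had 4.12, 7.99, 0.854 and 23.5 CPM in LEGSKO+BSO and 8.47, 13.9, 2.40 and 16.2 CPM in LEGSKO, against 2.37, 16.2, 30.7 and 3.71 CPM in WT. The 3 ranges overlapped throughout. The log2 change was −0.56 in LEGSKO+BSO against WT fibers, with an edgeR 95% interval from −2.24 to 1.12, and −0.40 in LEGSKO against WT fibers, with an interval from −2.12 to 1.32. Without WT fibers 3 both turned positive, at 0.23 and 0.40.

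Beside the spread of Aqp1 in fibers, 9 corneal and conjunctival epithelium markers also varied between libraries. They summed to 40.7, 31.3, 20.3 and 101.6 CPM in LEGSKO+BSO fibers 1 to 4 and to 51.8, 38.3, 20.7 and 35.2 CPM in LEGSKO fibers, against 14.7, 39.1, 45.6 and 24.1 CPM in WT fibers. The library with the lowest sum in each group was also the library with the lowest Aqp1. In LEGSKO+BSO and WT fibers the library with the highest sum had the highest Aqp1, and in LEGSKO fibers it did not. The 10 lens epithelium markers ran the other way in WT fibers, at 4628 CPM in library 1 and 4158 CPM in library 3. Their lowest sum was in library 3 of LEGSKO+BSO fibers, which had the lowest Aqp1, and in library 2 of LEGSKO fibers, which did not. Their group means were much alike in the tissues, 4151 to 4418 CPM in fibers and 4082 to 4191 CPM in epithelia. Yet 7 of the 10 fell and 3 rose in WT fibers against WT epithelia, with a median log2 change of −1.86. The sum of this list therefore does not measure epithelial cells in the fiber libraries, and nothing is read from its order. The keratins Krt5, Krt12 and Krt14 were at 0 in LEGSKO and WT fibers, Krt13 also in WT fibers, and Krt5 in LEGSKO+BSO fibers. The part of these markers' cells in the Aqp1 values was not tested.

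Between tissues Aqp1 fell in fibers in each condition. It was 22.9-fold lower in LEGSKO+BSO fibers (log2 −4.52, adjusted p = 6.914e-07), 21.9-fold lower in LEGSKO fibers (log2 −4.45, adjusted p = 1.248e-06) and 22.1-fold lower in WT fibers (log2 −4.47, adjusted p = 9.082e-07), each against the epithelia of the same condition. Without LEGSKO+BSO fibers 4 the LEGSKO+BSO value was 49.3-fold, and without WT fibers 3 the WT value was 37.9-fold. Scaled to library totals it was 46.7-fold lower in LEGSKO+BSO, 47.3-fold lower in LEGSKO and 47.4-fold lower in WT.

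Vessel endothelium and red cells also carry Aqp1, and their markers were summed in the epithelial libraries. The 8 blood vessel markers summed to 3.48 to 4.995 CPM in LEGSKO+BSO and 3.57 to 4.84 CPM in LEGSKO, against 2.85 to 6.49 CPM in WT epithelia. The 9 red blood cell markers summed to 86.3 to 115.3 CPM in LEGSKO+BSO and 64.6 to 84.9 CPM in LEGSKO, against 45.8 to 63.4 CPM in WT epithelia, with Slc4a1, the anion exchanger of the red cell membrane, at 0 in all 3 groups.

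Aqp5 was a fiber transcript in these libraries. Fibers had 340.0, 360.1, 395.2 and 378.1 CPM in LEGSKO+BSO and 331.8, 347.1, 301.9 and 320.7 CPM in LEGSKO, against 242.6, 313.3, 302.1 and 340.1 CPM in WT. The ranges overlapped, although 3 of the 4 LEGSKO+BSO libraries were above every LEGSKO and WT library. Means were 368.3 ± 23.7, 325.4 ± 19.1 and 299.5 ± 41.2 CPM in LEGSKO+BSO, LEGSKO and WT fibers (SD, n = 4 each).

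The difference of Aqp5 between LEGSKO+BSO and WT fibers was log2 0.30 ± 0.09 (SE), with an edgeR adjusted p of 0.07201, and did not pass. DESeq2 called it (log2 0.30, adjusted p = 0.02559), and edgeR called it without WT fibers 4 (log2 0.37, adjusted p = 0.04088). The other 7 of 8 edgeR fits that left out 1 library did not call it, with adjusted p-values up to 0.1792. With library totals as the scaling edgeR did not call it either (adjusted p = 0.3167). LEGSKO against WT fibers gave log2 0.12, with an interval from −0.08 to 0.31, and LEGSKO+BSO against LEGSKO fibers gave 0.18, with an interval from −0.01 to 0.38.

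In epithelia Aqp5 was several-fold lower. It had 39.0, 52.0, 46.5 and 36.6 CPM in LEGSKO+BSO and 52.6, 38.2, 36.1 and 36.2 CPM in LEGSKO, against 37.7, 61.9, 57.9 and 58.5 CPM in WT. In LEGSKO 1 library lay above the other 3, in WT 1 lay below the other 3, and the ranges overlapped. The log2 change was −0.31 in LEGSKO+BSO against WT epithelia (edgeR adjusted p = 0.3839) and −0.42 in LEGSKO against WT epithelia (adjusted p = 0.2292). Fibers exceeded epithelia 8.47-fold in LEGSKO+BSO (adjusted p = 1.503e-15), 7.98-fold in LEGSKO (adjusted p = 3.038e-15) and 5.55-fold in WT (adjusted p = 8.034e-14), and scaled to library totals 4.06-fold, 3.72-fold and 2.52-fold in the same conditions.

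Slc14a1 was the rarest of the 4, and it was the member called in fibers between conditions. It lies on the minus strand of chromosome 18. It was known from earlier work on these counts as higher in LEGSKO+BSO and LEGSKO than in WT epithelia, so the epithelial values against WT are a description with no test. The choice is not documented beyond this, and whether fiber values were also in view is not known, so the fiber p-values below hold only if they were not. Fibers had 3.68, 1.38, 2.56 and 3.41 CPM in LEGSKO+BSO and 2.05, 4.02, 3.75 and 1.40 CPM in LEGSKO, against 0.0818, 0.278, 0.388 and 0.300 CPM in WT. The lowest library of either LEGSKO group was more than 3 times the highest WT library. These values rested on 45 to 109 counts per library in LEGSKO+BSO fibers and 22 to 64 in LEGSKO fibers, against 1 to 7 in WT fibers, whose 4 libraries held 20 counts in all.

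Slc14a1 rose 9.84-fold in LEGSKO+BSO against WT fibers (log2 3.30 ± 0.47 SE, edgeR adjusted p = 0.001398) and 9.98-fold in LEGSKO against WT fibers (log2 3.32 ± 0.48 SE, adjusted p = 0.002331), higher in 4 of 4 libraries of each. It was called whichever library was left out, with log2 changes from 3.09 to 3.53 and adjusted p-values up to 0.007483 in LEGSKO+BSO, and from 3.10 to 3.54 and up to 0.01461 in LEGSKO. Of 13436 genes tested, 5.52% were called in LEGSKO+BSO against WT fibers, 3.05% higher and 2.47% lower, and 1.64% in LEGSKO against WT fibers, 1.09% higher and 0.543% lower. In each comparison 1 of the 4 members was called. The comparisons share the WT libraries.

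Epithelial libraries had 4.10, 2.52, 4.76 and 3.96 CPM of Slc14a1 in LEGSKO+BSO and 2.12, 2.78, 7.43 and 1.83 CPM in LEGSKO, against 0.422, 0.770, 0.922 and 0.234 CPM in WT. No LEGSKO or LEGSKO+BSO library overlapped the WT range. Counts were 74 to 206 in LEGSKO+BSO and 66 to 232 in LEGSKO, against 8 to 32 in WT. The fitted fold was 6.54 in LEGSKO+BSO and 5.96 in LEGSKO against WT epithelia, and without LEGSKO epithelia 3 the LEGSKO fold was 3.74. By edgeR 1.17% of 15089 genes were called in LEGSKO+BSO against WT epithelia, 0.795% higher and 0.378% lower, and 0.842% in LEGSKO against WT epithelia, 0.583% higher and 0.258% lower, and nothing is read from Slc14a1 among them.

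**Figure D2:**
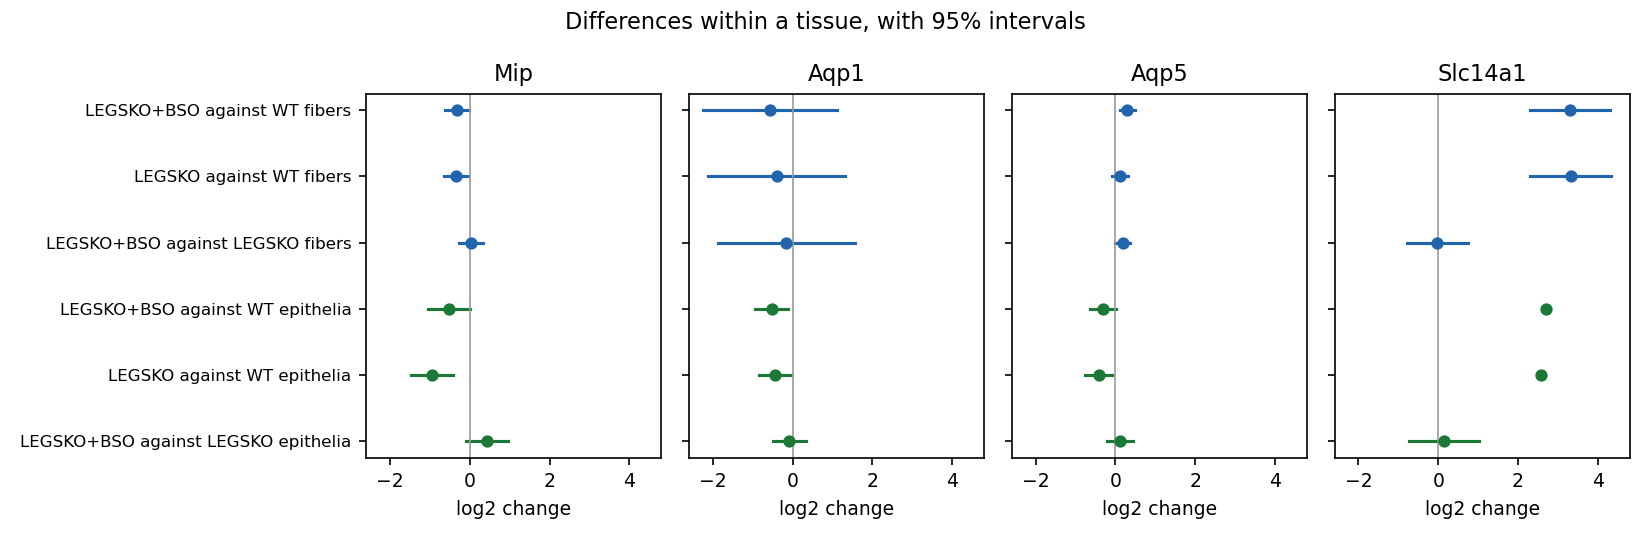
Fitted log2 changes of the 4 genes in the 6 comparisons within a tissue, with 95% intervals from edgeR except for Slc14a1 in epithelia against WT, shown as points with no interval; fibers are blue and epithelia green, and positive values are higher in the group named first. Slc14a1 in fibers against WT has intervals from 2.30 upward, while its intervals for LEGSKO+BSO against LEGSKO include 0.

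Adding BSO to the LEGSKO genotype moved none of the 4 genes past the test. In fibers Slc14a1 gave a log2 change of −0.02 in LEGSKO+BSO against LEGSKO (95% interval −0.78 to 0.74) and Mip 0.03 (−0.28 to 0.33). In epithelia Slc14a1 gave 0.13 (−0.74 to 1.01), Mip 0.43 (−0.09 to 0.95), Aqp1 −0.08 (−0.50 to 0.33) and Aqp5 0.11 (−0.22 to 0.45). By edgeR 0 of 4 were called in either tissue, with 0 at an unadjusted p of 0.05 and 0 by DESeq2, against 0.722% of all genes called in epithelia (0.325% higher, 0.398% lower) and 0.0298% in fibers (0.0223% higher, 0.00744% lower). These intervals do not show that the groups were alike: for Slc14a1 they allow changes of about log2 0.7 to 1.0 either way.

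Beside the epithelial excess in Slc14a1, the group means of eye surface marker sums were also higher in LEGSKO+BSO and LEGSKO than in WT. The 9 corneal and conjunctival epithelium markers summed to 1997 to 2756 CPM in LEGSKO+BSO and 1549 to 2206 CPM in LEGSKO, against 567.2 to 1430 CPM in WT epithelia. The 9 stroma and corneal endothelium markers summed to 58.0 to 91.1 CPM in LEGSKO+BSO and 79.6 to 133.8 CPM in LEGSKO, against 24.4 to 59.8 CPM in WT, with the keratocyte gene Kera at 0 in all epithelial groups and Lum also in WT. Within a group the order of epithelial libraries was mixed. In LEGSKO+BSO library 2 had the lowest of both sums and of Slc14a1. In LEGSKO library 4 had the highest corneal sum and the lowest Slc14a1, while library 3 had the highest stromal sum and the highest Slc14a1. In WT library 3 had the highest corneal sum and Slc14a1, but the lowest were in libraries 1 and 4. The part of these markers' cells in Slc14a1 in epithelia was not tested. In fibers, where Slc14a1 differed as well, the corneal sums overlapped, at 20.3 to 101.6 CPM in LEGSKO+BSO and 20.7 to 51.8 CPM in LEGSKO, against 14.7 to 45.6 CPM in WT. The stromal sums in fibers were 0.428 to 2.80 CPM in LEGSKO+BSO and 0.293 to 2.56 CPM in LEGSKO, against 0.250 to 0.832 CPM in WT, with Lum, Kera and Dcn at 0 in every group. Within WT fibers the library with the lowest corneal sum (library 1) had the lowest Slc14a1 and the library with the highest (library 3) the highest. In LEGSKO+BSO fibers the lowest stromal sum, 0.428 CPM, and the lowest Slc14a1, 1.38 CPM, were both in library 2, while the highest stromal sum was in library 4 and the highest Slc14a1 in library 1. In LEGSKO fibers the lowest corneal and stromal sums were in library 3, with 3.75 CPM of Slc14a1, and the highest in library 1, with 2.05 CPM. Their part in Slc14a1 in fibers was not tested.

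**Figure D3:**
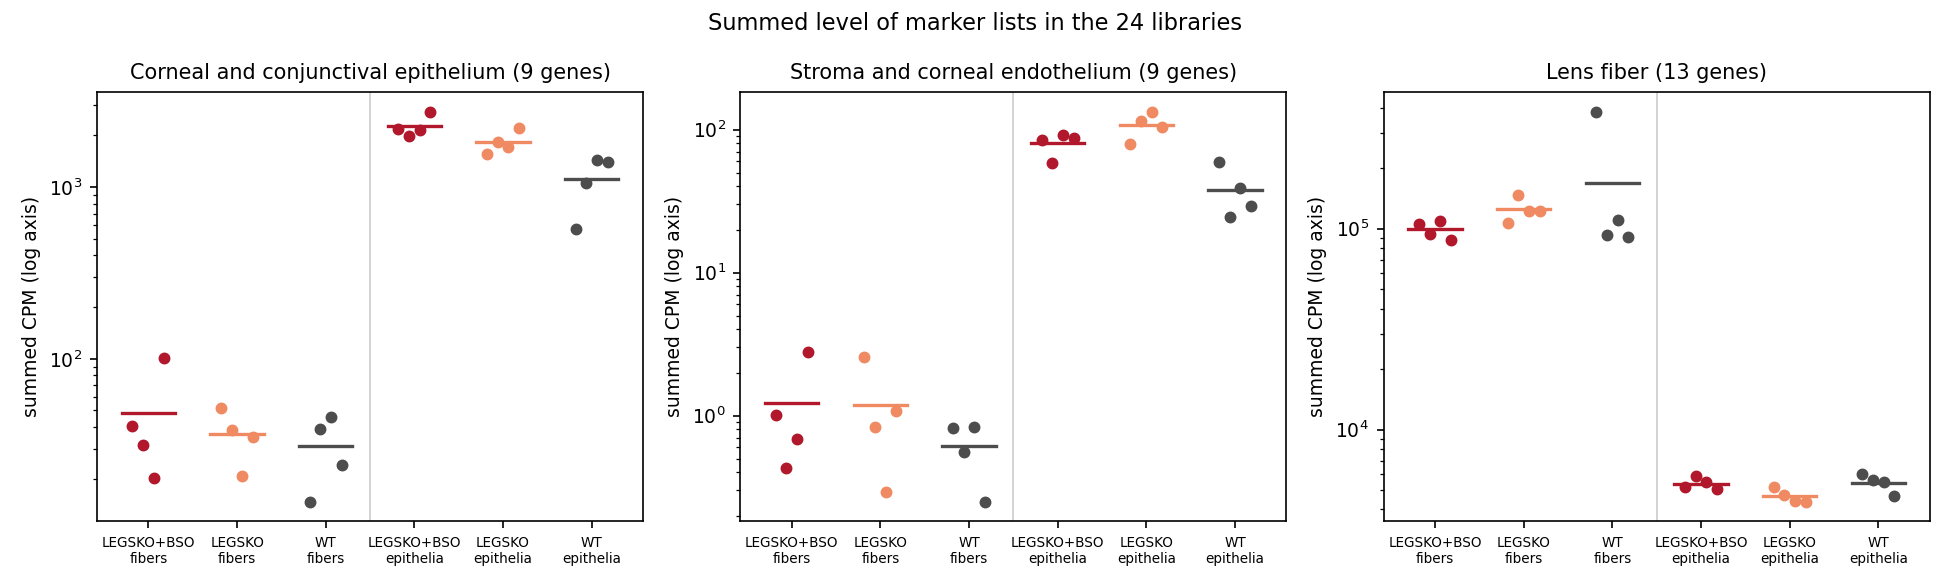
Summed CPM (log axis) of 3 marker lists in the 24 libraries, with LEGSKO+BSO, LEGSKO and WT fibers left of the line and epithelia right of it; points are libraries 1 to 4 and bars are group means. In epithelia every LEGSKO+BSO and LEGSKO corneal sum is above WT, the LEGSKO+BSO and WT stromal sums overlap (57.96 CPM in LEGSKO+BSO 2, 59.78 CPM in WT 1), both sums overlap in fibers, and 1 WT fiber library has a fiber marker sum of 382421 CPM.

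Red cells, which carry UT-B, were also examined. In fibers the 9 red blood cell markers summed to 12.3 to 12.9 CPM in LEGSKO+BSO and 13.9 to 15.7 CPM in LEGSKO, against 15.8 to 86.7 CPM in WT, where library 1 held the 86.7 CPM and the other 3 libraries 15.8 to 18.7 CPM. In epithelia the same list was higher in LEGSKO+BSO and LEGSKO than in WT without overlap, at the sums given beside Aqp1. The part of red cells in Slc14a1 was not tested. Slc4a1 was at 0 in LEGSKO and WT fibers. The 10 immune cell markers summed to 5.09 to 7.37 CPM in LEGSKO+BSO and 1.17 to 2.16 CPM in LEGSKO, against 1.25 to 2.501 CPM in WT fibers, and their part was not tested. In fibers the 8 retinal glia and astrocyte markers were higher in LEGSKO+BSO and LEGSKO than in WT without overlap. They summed to 3479 to 4184 CPM in LEGSKO+BSO and 3599 to 4495 CPM in LEGSKO, against 2579 to 3208 CPM in WT. Of these, Slc1a3 was at 0 in LEGSKO and WT fibers. The part of glial cells in Slc14a1 was not tested.

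Slc14a1 overlapped between tissues. The log2 change of fibers against epithelia was −0.48 in LEGSKO+BSO (edgeR adjusted p = 0.2838), −0.33 in LEGSKO (adjusted p = 0.4815) and −1.08 in WT (adjusted p = 0.1265). DESeq2 called the WT difference (log2 −1.17, adjusted p = 0.04595), and scaling to library totals called all 3, at −1.54, −1.48 and −2.20. Over all 15560 genes, 78.9% were called between tissues in LEGSKO+BSO (38.1% higher and 40.8% lower in fibers), 75.8% in LEGSKO (36.8% higher, 39% lower) and 76.4% in WT (37% higher, 39.4% lower), so the member calls between tissues are near the share of all genes. In each condition 2 members rose and 1 fell in fibers.

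The response to the genotype or to genotype with BSO was next compared between fibers and epithelia for the 3 aquaporins. The fiber minus epithelial difference for Aqp5 was log2 0.61 for LEGSKO+BSO (edgeR adjusted p = 0.1663) and 0.53 for LEGSKO (adjusted p = 0.3899). For Mip it was 0.21 for LEGSKO+BSO (adjusted p = 0.8298) and 0.59 for LEGSKO (adjusted p = 0.5852), and for Aqp1 −0.05 and 0.01. None passed, and over all genes 0.276% were called for LEGSKO+BSO (0.161% higher, 0.116% lower) and 0.103% for LEGSKO (0.0321% higher, 0.0707% lower).

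Per kilobase of exon the order of levels was the same in all 3 epithelial groups, with Mip above Aqp1, Aqp1 above Aqp5 and Aqp5 above Slc14a1. Mip averaged 481.8, 362.4 and 692.3 CPM per kilobase in LEGSKO+BSO, LEGSKO and WT epithelia, and Aqp1 79.1, 84.9 and 113.9. Aqp5 averaged 24.2, 22.7 and 30.1 CPM per kilobase in the same groups, and Slc14a1 0.959, 0.886 and 0.147. In fibers Aqp5 took the second place, with 205.0, 181.1 and 166.7 CPM per kilobase in LEGSKO+BSO, LEGSKO and WT. Mip stood at 9058, 8899 and 11278 there, Aqp1 at 3.467, 3.898 and 5.04, and Slc14a1 at 0.691, 0.702 and 0.0656. The ratio of Mip to Aqp5 per length had a median of 44.4 in LEGSKO+BSO, 49.3 in LEGSKO and 57.3 in WT fibers, with 39.9 to 48.6, 47.0 to 51.2 and 51.0 to 117.4 as ranges.

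The other 9 aquaporins and the second urea transporter were mostly rare. Aqp4, the water channel of glia, averaged 84.6 ± 10.6, 85.5 ± 5.65 and 99.2 ± 12.1 CPM in LEGSKO+BSO, LEGSKO and WT epithelia (SD, n = 4 each), and 10.1, 14.4 and 14.0 CPM in fibers of the same conditions. Aqp7, which also passes glycerol, averaged 9.445 to 10.03 CPM over the fiber groups and 10.8 to 12.3 CPM over the epithelial groups. Aqp11 averaged 3.24 to 3.65 CPM in fiber groups and 1.67 to 2.59 CPM in epithelial groups. Aqp2, Aqp8 and Aqp9 had group means of at most 1.335 CPM. Aqp3, Aqp6, Aqp12 and Slc14a2, the renal urea transporter UT-A, held at most 15 counts in any group of 4 libraries.

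**Figure D4:**
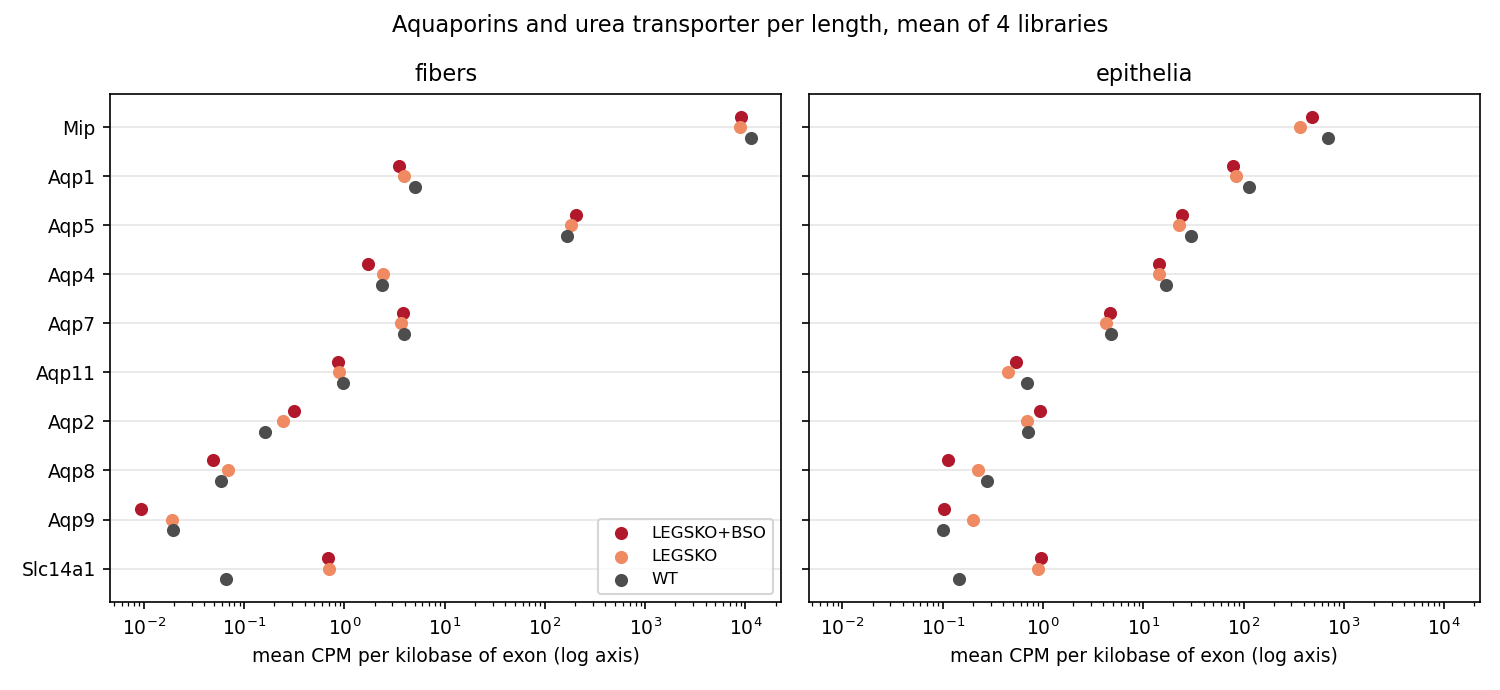
Mean CPM per kilobase of exon (log axis) of 9 aquaporins and Slc14a1 in fibers and epithelia, with LEGSKO+BSO, LEGSKO and WT as colours and 4 libraries behind each point. Mip leads in both tissues, Aqp5 is second in fibers and Aqp1 second in epithelia.

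Within a tissue none of these relatives was called. In epithelia 6 of the 10 were tested and 0 called in LEGSKO+BSO or LEGSKO against WT, with 2 and 3 at an unadjusted p of 0.05 and 0 by DESeq2, and with median log2 changes of −0.14 and −0.22 against −0.01 for all genes. In fibers 3 were tested and 0 called in either, with 0 at an unadjusted p of 0.05 and 0 by DESeq2. Over all genes edgeR called 1.17% and 0.842% in epithelia and 5.52% and 1.64% in fibers, in LEGSKO+BSO and LEGSKO against WT. Between WT fibers and WT epithelia 1 of 6 rose and 5 fell: Aqp4 by log2 −2.81 (edgeR adjusted p = 4.53e-12), Aqp2 by −2.01 (adjusted p = 0.0002857), Aqp7 by −0.30 (adjusted p = 0.01334), and Aqp11 rose by 0.49 (adjusted p = 0.04881). Scaled to library totals Aqp11 was also lower in WT fibers, at −0.68, and 0 rose and 6 fell.

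Genes that act with Mip, chosen for calmodulin binding, kinase anchoring, the cytoskeleton and the fiber membrane, were next compared between tissues. In WT fibers against WT epithelia 14 of 17 tested rose and 2 fell, with a median log2 change of 1.28 where all genes had −0.09, and where 37% of all genes rose and 39.4% fell. The beaded filament genes Bfsp1 and Bfsp2 rose by log2 5.04 and 4.45 and the fiber membrane gene Lim2 by 4.98. Bfsp1, Bfsp2 and Lim2 are also among the lens fiber markers. Part of the rise therefore follows from how the list was chosen, and the count is a description. Scaled to library totals 7 rose and 6 fell. Within tissues 0 of 17 were called against WT in either condition, with 1 in LEGSKO+BSO and 2 in LEGSKO epithelia and 7 in LEGSKO+BSO and 2 in LEGSKO fibers at an unadjusted p of 0.05. DESeq2 called 1 of them in LEGSKO+BSO epithelia, 0 in LEGSKO epithelia and 1 in each fiber comparison. The edgeR shares of all genes called against WT were 1.17% in LEGSKO+BSO and 0.842% in LEGSKO epithelia. In fibers they were 5.52% in LEGSKO+BSO and 1.64% in LEGSKO.

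The sodium pump and ion cotransporters, which set the gradients that water follows, were compared in the same way. In WT fibers against WT epithelia 1 of 14 rose and 11 fell (median log2 −2.56), where 39.4% of all genes fell, among them the pump subunit Atp1b3 (log2 −3.06) and the sodium potassium chloride cotransporter Slc12a2 (−2.15). Scaled to library totals 0 rose and 14 fell. Of 12 genes tested in fibers 1 was called, where edgeR called 5.52% of all genes in LEGSKO+BSO and 1.64% in LEGSKO against WT. This was Slc4a4, a sodium bicarbonate cotransporter, which fell against WT in both conditions. It averaged 40.9 ± 4.11 CPM in LEGSKO+BSO fibers and 40.7 ± 5.19 CPM in LEGSKO fibers, against 56.8 ± 3.11 CPM in WT fibers, with edgeR adjusted p-values of 0.01061 and 0.01914. With library totals as the scaling 0 of 12 were called in either comparison. In LEGSKO epithelia it averaged 44.2 ± 8.92 CPM, against 60.8 ± 5.24 CPM in WT epithelia, and did not pass (log2 −0.48, adjusted p = 0.09692).

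Genes of osmolyte accumulation gave isolated calls. Akr1b3, the aldose reductase that makes sorbitol, rose 1.27-fold in LEGSKO+BSO (edgeR adjusted p = 0.04517) and 1.38-fold in LEGSKO (adjusted p = 0.009835) against WT epithelia, at 130.5 ± 12.1 and 143.9 ± 8.82 CPM against 102.9 ± 6.42 CPM. It was the 1 gene called of 10 in each, where 1.17% and 0.842% of all genes were called in LEGSKO+BSO and LEGSKO. In fibers Hspa4l, a heat shock protein of osmotic stress, fell by log2 0.35 in LEGSKO+BSO (adjusted p = 0.01516) and by 0.33 in LEGSKO (adjusted p = 0.04165) against WT, and Gdpd5, which breaks down the osmolyte glycerophosphocholine, fell by 0.67 in LEGSKO (adjusted p = 0.04673). The other fiber genes of the list did not pass, and 8 were tested. Over all genes 5.52% were called in LEGSKO+BSO and 1.64% in LEGSKO against WT fibers. With library totals as the scaling 0 of 8 were called in either fiber comparison.

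Of 8 tested genes of urea and polyamine metabolism, Odc1, the first enzyme of polyamine synthesis, rose 1.31-fold in LEGSKO against WT epithelia (edgeR adjusted p = 0.03311). It averaged 126.2 ± 14.2 CPM in LEGSKO+BSO and 164.7 ± 5.10 CPM in LEGSKO, against 124.6 ± 5.83 CPM in WT epithelia, and fell in LEGSKO+BSO against LEGSKO (log2 −0.37, adjusted p = 0.04528). None of the 8 was called in fibers, with 2 in LEGSKO+BSO and 1 in LEGSKO against WT at an unadjusted p of 0.05 and 0 by DESeq2. Of the genes of volume and pressure sensing, 0 of 16 in epithelia and 0 of 15 in fibers were called against WT, with 2 and 1 in LEGSKO+BSO and 1 and 0 in LEGSKO at an unadjusted p of 0.05. DESeq2 called 1 of them in LEGSKO+BSO epithelia and 0 in the other 3 comparisons. For both lists, the edgeR shares of all genes called against WT epithelia were 1.17% in LEGSKO+BSO and 0.842% in LEGSKO. The share was 0.722% in LEGSKO+BSO against LEGSKO epithelia. In fibers against WT the shares were 5.52% in LEGSKO+BSO and 1.64% in LEGSKO.

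Genes whose log2 CPM ran most closely with each channel were ranked by the root mean square difference after centring each gene on its mean. Over 24 libraries and 11068 genes the nearest to Mip were Pgap6, Tmem178 and Slc24a2, at 0.258, 0.292 and 0.323, where Mip itself had an SD of 2.21. Nearest to Aqp1 were Clec2d, Islr and Cyp2d22, at 0.498 to 0.578, and nearest to Aqp5 were Rxrg, Pmm1 and Jazf1, at 0.154 to 0.190. Over the 12 epithelial libraries and 11847 genes, Slc14a1 was ranked too, as a description only, because these libraries hold the genotype difference known when it was chosen and any gene with the same step ranks near it. The nearest were Mt2 at 0.607, Mt1 at 0.725 and Ier3 at 0.804, where Slc14a1 had an SD of 1.36. Mt2 and Mt1 encode metallothioneins, small proteins that bind zinc and copper. In the same 12 libraries the nearest to Mip were Nrcam, Fat3 and Dok7, to Aqp1 Islr, Tgfbr3l and Emp2, and to Aqp5 Lctl and Perp.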

How the data were processed

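Whole-gene read counts per library were deposited by the authors as 1 table, and analysis started from these counts. TopHat, CASAVA 1.8, DESeq and bcl2fastq are named, with mm10/GRCm38, per the submitters' processing notes; counting tool, annotation and strand setting were not given in the sources used here. Of 24415 Entrez identifiers, 24334 matched a symbol and the rest held 0.914% of counts. Libraries were scaled by TMM and tested with edgeR 4.0.16 in R 4.3.3 (quasi-likelihood F test, filterByExpr at min.count 10 and min.total.count 15, Benjamini-Hochberg adjustment over all genes tested, threshold 0.05). Epithelia and fibers were fitted separately, and tissue differences and their interactions in 1 fit of 24 libraries, whose scaling all printed CPM use. SEs and 95% intervals come from the F statistic. DESeq2 1.42.0, its size factors, no filter, crystallins left out, library totals without TMM, a replicate block and leaving out each library were alternatives. Exon lengths are GENCODE M21 unions. The fit was tested on simulated counts. Named genes were the 4 members, every aquaporin and urea transporter by level, at most 3 called genes per list within a tissue, and the 3 nearest genes by root mean square difference; genes of the lists named between tissues were chosen after their values were seen. The members and gene lists were chosen with earlier results of these data known. Some genes that these rules would name are not reported here.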

Additional observations from a re-analysis of the deposited data

Results flagged for a closer look

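Among 24 combinations of gene and group, 4 held a library whose gap to its neighbour was large for the range of its group by Dixon's criterion, where chance gives about 1 in 20. Mip was highest in WT fibers 1, at 33981 CPM. Aqp5 was highest in LEGSKO epithelia 1, at 52.6 CPM, and lowest in WT epithelia 1, at 37.7 CPM. Slc14a1 was highest in LEGSKO epithelia 3, at 7.43 CPM.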

How the results depend on the processing

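Of 44 member results, 44 kept direction and side of the threshold with DESeq2 size factors, 44 with crystallins left out, 43 with no filter, 41 with the DESeq2 test, 41 with the replicate block and 39 with library totals. These counts include Slc14a1 in LEGSKO+BSO and LEGSKO against WT epithelia, known when the set was chosen, and its interactions, which use those values. For these the counts are a description and no support. Mip in LEGSKO against WT epithelia passed with no filter (log2 −0.9459), with the replicate block (−1.0425) and with DESeq2 (−0.9519), and Aqp5 in LEGSKO+BSO against WT fibers with DESeq2 (0.2966). Slc14a1 in WT fibers against WT epithelia passed with DESeq2 (−1.1688) and with library totals (−2.2031), which also called LEGSKO (−1.4773) and LEGSKO+BSO (−1.5394). Slc14a1 in LEGSKO+BSO against LEGSKO fibers reversed with the replicate block (0.0069) and library totals (0.0858), and the Aqp1 interactions reversed with the replicate block (LEGSKO, −0.1025) and library totals (LEGSKO+BSO, 0.0212). The cause was not tested. Leaving out 1 library gave ranges of −1.2254 to −0.7342 for Mip in LEGSKO against WT epithelia, 1.9043 to 2.8893 for Slc14a1 there, 0.21 to 0.3699 for Aqp5 in LEGSKO+BSO against WT fibers, and −0.5692 to 0.3267 for Slc14a1 in LEGSKO fibers against LEGSKO epithelia. For LEGSKO+BSO against LEGSKO they were −0.2451 to 0.0775 (Aqp1) and −0.075 to 0.8044 (Slc14a1) in epithelia, and −1.222 to 0.2216 (Aqp1) and −0.2363 to 0.2073 (Slc14a1) in fibers. For Aqp1 in fibers they were −0.7289 to 0.3967 in LEGSKO and −1.6206 to 0.2333 in LEGSKO+BSO against WT, and for its interactions −0.3116 to 0.7918 (LEGSKO) and −1.1022 to 0.7338 (LEGSKO+BSO).

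Counts of all genes called moved more. In epithelia DESeq2 called 580 genes in LEGSKO+BSO and 460 in LEGSKO against WT, where edgeR called 177 and 127, and 649 in LEGSKO+BSO against LEGSKO, where edgeR called 109, the replicate block 46 and library totals 64. In fibers DESeq2 called 1172 in LEGSKO+BSO and 514 in LEGSKO against WT, where edgeR called 742 and 220, library totals 173 and 75, and the replicate block 143 in LEGSKO. In LEGSKO+BSO against LEGSKO fibers edgeR called 4, no filter 14, the replicate block 2 and DESeq2 80. For the interactions edgeR called 43 (LEGSKO+BSO) and 16 (LEGSKO), DESeq2 300 and 83, library totals 13 and 4, and the replicate block 10 for LEGSKO. Between tissues library totals moved the median of all genes to log2 −1.152 in LEGSKO+BSO, −1.183 in LEGSKO and −1.251 in WT, with 2299, 2106 and 1982 genes higher and 11053, 11213 and 11462 lower in fibers, where TMM gave 5924, 5724 and 5761 higher and 6349, 6065 and 6131 lower. Library totals were added after the data were seen.

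Replicate numbers were not taken to pair libraries: same-numbered libraries of a tissue correlated in their deviations from −0.249 to 0.248, 5 of 24 above 0.1. Between epithelia and fibers of a condition they correlated from −0.05 to 0.194, 3 of 12 above 0.1, and 8 of 12 correlated best with their own number, a hint from the data and not from the design. Slc14a1 in WT fibers rests on 20 counts, which limits its fold.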
